A study of Mus musculus with 13 samples.

Results

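The stretch of mouse chromosome 17 from 34305001 to 34365000 (build mm9, 60 kb) holds the antigen processing genes Psmb9, Tap1, Psmb8 and Tap2 within the class II region of the major histocompatibility complex. Its members are the peaks that overlap it in 9 deposited peak lists. They number 39 of 109165. The stretch was chosen on the 14 peaks of the NUP98-PHF23 fusion protein (NP23) listed there in the line 961C, so the number of those peaks is a description and supports nothing. The other members are H3K4me3 peaks, 7 in 961C, 6 in 748T, 6 in 106A and 6 in SCL-LMO1 cells. None of the 4 H3K27me3 lists has a peak in it.

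Chromatin immunoprecipitation followed by sequencing was carried out on 4 mouse leukaemia lines. The series relates 2 histone marks to the binding of NP23. 961C is a myeloblast line from an NP23 acute myeloid leukaemia (AML) of a C57BL/6 mouse, and is the line in which V5-tagged NP23 was mapped. 748T and 106A are lymphoblast lines from NP23 leukaemias that the labels call pre-T LBL, of different C57BL/6 mice. The control without NP23 is the SCL-LMO1 lymphoblast line, which came from an SCL-LMO1 pre-T LBL in a hybrid of C57BL/6 and C3H. All 4 lines grow without added cytokines. 961C differs in lineage from 748T and 106A, which carry the fusion too, and in lineage, strain and oncogene from the SCL-LMO1 control. Between 748T or 106A and that control, the fusion cannot be told apart from strain and oncogene, and between 961C and the control not from lineage either. The sources used here do not give the promoter that drives the fusion or how the tagged protein was introduced into 961C. Each line has 1 library per antibody. No test between lines was therefore possible, and intervals below are exact (Clopper-Pearson, 95%) and cover counting error only.

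Psmb8 and Psmb9 encode catalytic subunits of the immunoproteasome, the form of the proteasome that cuts cytosolic proteins into peptides suited to class I molecules. Tap1 and Tap2 encode the subunits of the ABC transporter that carries those peptides into the endoplasmic reticulum. All are induced by interferon gamma, and many haematopoietic cells express them without it. Although they lie among class II genes, they serve class I presentation. NUP98 is a nuclear pore protein, and the PHD finger of PHF23 can bind histone H3 trimethylated at lysine 4, which is H3K4me3, the mark of active promoters. H3K27me3 is the repressive mark of Polycomb complexes.

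In the RefSeq gene table, on assembly GRCm38.p6, the order along the chromosome is H2-DMb1, Psmb9, Tap1, Psmb8, Tap2 and H2-Ob, with no other listed gene between the 4 members. H2-DMb1 encodes a chain of the peptide exchange factor for class II molecules, and H2-Ob a chain of its inhibitor. Because that assembly is not the build of the peaks, single peaks were not assigned to single genes, and regions are named by mm9 position. Promoters of 3 of the 4 members were found in the RefSeq promoter table. The 250 bases before the start of Tap1 and of Psmb8 are shown because the stretch carries H3K4me3, the promoter mark, in every line. Psmb9 is not printed, since it starts on the opposite strand and its 250 upstream bases share 225 with those of Tap1, read on the other strand. Capitals mark the motifs found.
Tap1, chr17:34187306-34187555, + strand, GRCm38.p6: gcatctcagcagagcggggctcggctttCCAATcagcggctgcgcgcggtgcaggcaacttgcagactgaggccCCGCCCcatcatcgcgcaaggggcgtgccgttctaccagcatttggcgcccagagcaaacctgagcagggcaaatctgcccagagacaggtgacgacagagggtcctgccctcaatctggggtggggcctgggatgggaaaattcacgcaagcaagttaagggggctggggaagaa
Psmb8, chr17:34197945-34198194, + strand, GRCm38.p6: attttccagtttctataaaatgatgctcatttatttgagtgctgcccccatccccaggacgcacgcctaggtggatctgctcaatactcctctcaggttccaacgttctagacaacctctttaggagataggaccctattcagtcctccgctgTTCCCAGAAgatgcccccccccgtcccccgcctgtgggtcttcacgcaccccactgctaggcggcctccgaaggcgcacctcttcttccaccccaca
In the shared Tap1 and Psmb9 stretch the capitals are a CCAAT box (CCAAT, 222 to 218 bases before the Tap1 start) and a GC box (GGGCGG, on the opposite strand of Tap1, 176 to 171 bases before it). In Psmb8 they are a gamma-activated site (TTCNNNGAA, 97 to 89 bases before the start). Both strands were searched, and the motifs do not overlap here. Of 32851 RefSeq promoters of the same length, 33.85% held a CCAAT box, 32.7% a GC box and 7.02% a gamma-activated site. The core of the interferon-stimulated response element, searched as GAAANNGAA and held by 7.13% of promoters, was not in these windows. These are letter matches in the reference and not measured sites.

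NP23 lay over the middle of the stretch and nowhere else in it. The 14 peaks ran from 34320627 to 34349443, a span of 28.8 kb of which they covered 63.3%, or 18.2 kb. The gaps between neighbouring peaks were 208 to 1720 bp, with a median of 603 bp. Peaks here were long for the list. Their median width was 921.5 bp against 164 bp over all 1629 NP23 peaks, and 10 of the 14 were 500 bp or more, against 18.7% of the list. These 10 held 94.6% of the NP23 bases of the stretch. Since NP23 peaks chose the stretch, these values carry no test.

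The longest NP23 peak, from 34325832 to 34330317, was 4486 bp, the 24th widest of the list, with a maximum pileup of 31 reads. The next, from 34334883 to 34338539, was 3657 bp and reached 34 reads. Widths of 2087, 1639, 1324 and 1079 bp followed, at 34322206, 34341352, 34339734 and 34324545. The last of these reached 34 reads, the others 28, 25 and 22. These 6 peaks, the widest of the 14, exceeded the maximum height of at least 80.2% of the list. The remaining peaks of 500 bp or more started at 34348493 (951 bp, 20 reads), 34333144 (892 bp, 15 reads), 34330921 (626 bp, 25 reads) and 34347558 (512 bp, 12 reads). The 4 short peaks were 170 to 461 bp wide and 9 to 16 reads high, near the list median of 13 reads. Of these 4, 3 had a value of 0 in a second track, which the files do not explain. Over the 14 peaks its mean was 0 to 0.719 reads, apart from 2.77 reads at 34330921, against a list median of 0.134. Its part in these peaks was not tested.

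**Figure D1:**
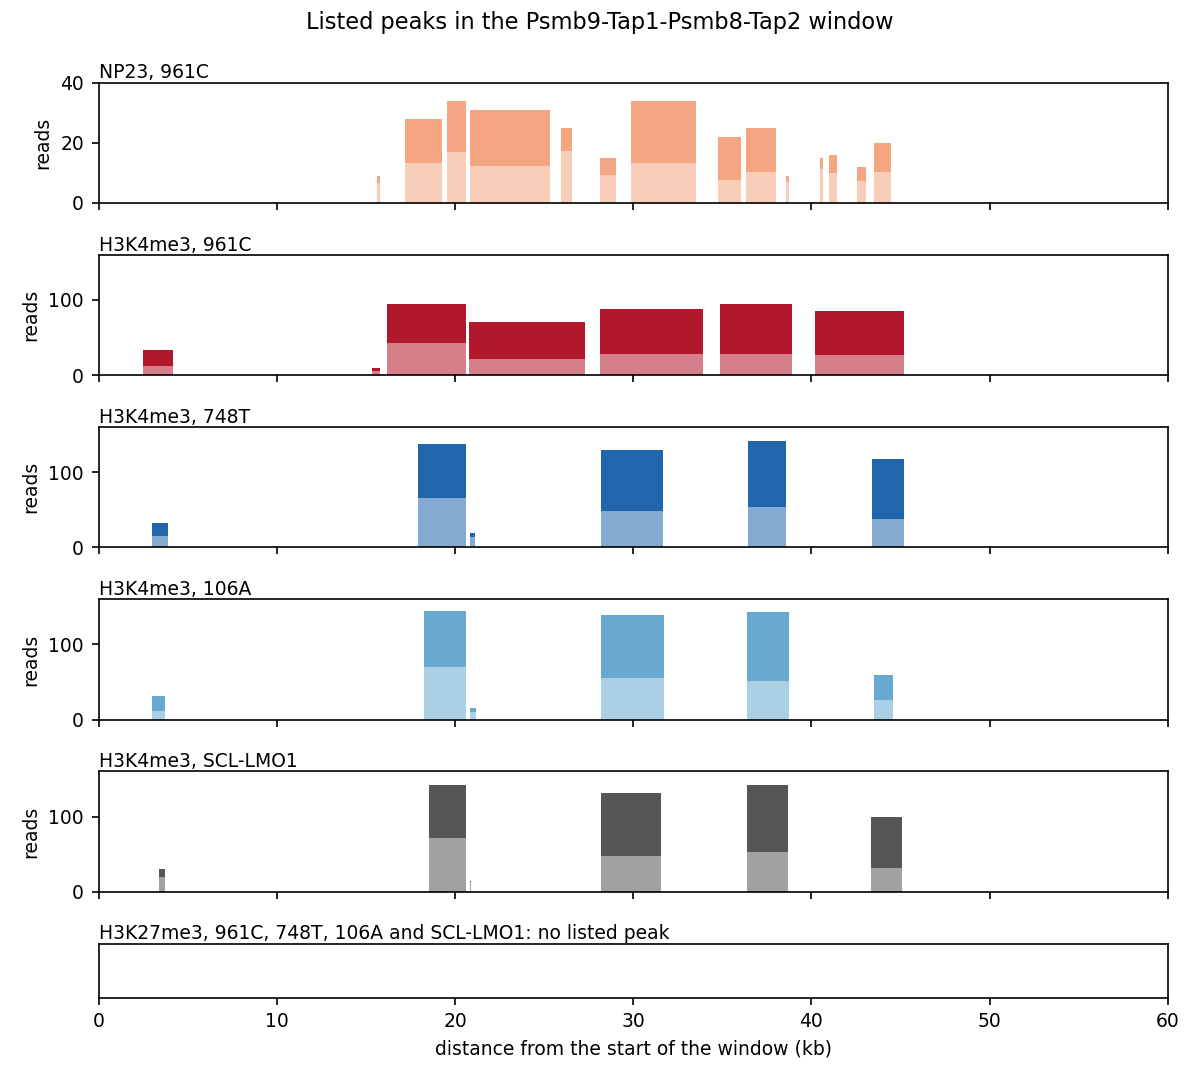
Peaks listed in the 60 kb stretch, by distance from its start in kb (x axis). The height of each box is the maximum pileup in reads and the paler lower part its mean (y axis, with its own scale for NP23). NP23 and the longer H3K4me3 boxes of 961C fill the middle, where 748T, 106A and the SCL-LMO1 control have shorter, separate boxes, and no H3K27me3 peak is listed.

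H3K4me3 marked the stretch in all 4 lines and was longest in 961C. It covered 27.8 kb in 961C (46.4% of the stretch), 11.3 kb in 748T, 10.3 kb in 106A and 9.88 kb in SCL-LMO1 cells. The coverage of 961C was 2.58 times the mean of the NP23 pre-T lines (10.8 ± 0.713 kb, SD, n = 2 lines) and 2.82 times that of the SCL-LMO1 control. The 3 lymphoblast lines lay closer to each other than any of them lay to 961C. The whole H3K4me3 lists did not differ in this way: their median peak width was 1033 bp in 961C and 1013 to 1133.5 bp in the other lines. The lists give no read totals, so depth is unknown. The median H3K4me3 peak is listed at 38 reads in 961C and at 76 to 97 reads in the other lines, heights that are not scaled between lists, and what part the library has in the longer peaks of 961C was not tested.

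Merging the peaks of the 4 lines gave 7 regions, numbered here in their order along the chromosome. Of these, 6 were marked in every line, and each of the 6 was longer in 961C than in any other line. Over the genome 9449 regions were marked in all 4 lines, and in 38.2% of them 961C was the longest. All 6 were at least 1.5 times as long in 961C as the mean of the other 3 lines, against 6.71% of the regions marked in all 4 lines. The rule did not use H3K4me3, but NP23 and H3K4me3 overlap in 961C and 5 of the 6 regions hold NP23. Among the 232 such regions of the genome with NP23, 37.9% passed the same ratio, and 50.3% of the 153 with NP23 over 500 bp or more did. The median ratio was 1.29 for regions with NP23, 1.51 for those with NP23 over 500 bp or more, and 1.04 for those without it.

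Region 3, from 34321191 to 34325631, was 71.3% covered by NP23. Its H3K4me3 was 4441 bp long in 961C, 2704 bp in 748T, 2383 bp in 106A and 2056 bp in SCL-LMO1 cells, a ratio of 1.87 between 961C and the mean of the others (2381 ± 324 bp, SD, n = 3 lines). The right edges of all 4 lines lay within 20 bp of each other. On the left, H3K4me3 of 961C went 1720 bp beyond 748T, 2053 bp beyond 106A and 2365 bp beyond the SCL-LMO1 control. The difference was thus all on 1 side. Peaks of this region were among the tallest of the stretch, with maxima of 95, 137, 144 and 142 reads in the same order of lines, each at least 1.48 times the median of its own list.

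Region 4, from 34325797 to 34332307, had the widest H3K4me3 peak of 961C in the stretch, 6511 bp, the 56th widest of 17696. It was 78.5% covered by NP23 and held the longest NP23 peak. In the other lines only its left end was marked, over 262 bp in 748T, 339 bp in 106A and 101 bp in SCL-LMO1 cells, with maxima of 15 to 19 reads. These short peaks lay close to region 3. The ratio of 27.8 for this region therefore depends on where peaks were split. With peaks within 1 kb joined, regions 2 to 6 became 1 domain of 23.6 kb in 961C, against 8858 bp in 748T, 8789 bp in 106A and 8034 bp in SCL-LMO1 cells over the same bases, and the ratio was 2.75. The second track reached 20 reads in the 961C peak of region 4, a height reached by 0.0509% of that list. The highest second-track value in the stretch was reached by 11.2% of the list of 748T, 3.52% of that of 106A and 7.41% of that of the SCL-LMO1 control. Its part in the length was not tested.

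Region 5, from 34333124 to 34338917, held the widest H3K4me3 peak of 748T (3510 bp), of 106A (3511 bp) and of the SCL-LMO1 control (3396 bp). In 961C it was 5794 bp, 1.67 times their mean of 3472 ± 66.1 bp (SD, n = 3 lines), the smallest ratio of the 6 regions. NP23 covered 78.5% of it. Here the left edges agreed to 76 bp or less and 961C went 2207 to 2332 bp further on the right. The maxima were 88 reads in 961C, 129 in 748T, 139 in 106A and 131 in SCL-LMO1 cells, unscaled. Over the median of the own list they were 2.32, 1.70, 1.43 and 1.72 in the same order of lines.

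Region 6, from 34339871 to 34343932, was 73.8% covered by NP23. It measured 4062 bp in 961C, 2145 bp in 748T, 2322 bp in 106A and 2273 bp in SCL-LMO1 cells, a ratio of 1.81 over the mean of the others (2247 ± 91.4 bp). 961C went 1524 to 1567 bp further on the left and 196 to 350 bp further on the right. Region 7, from 34345208 to 34350224, was 41.7% covered by NP23, the least of the 5 long regions. It measured 4996 bp in 961C, 1806 bp in 748T, 1061 bp in 106A and 1737 bp in SCL-LMO1 cells, a ratio of 3.26 over the mean of the others (1535 ± 412 bp). Here 961C went 3134 to 3291 bp further on the left, and on the right 748T ended 21 bp beyond it.

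In regions 3 and 5 to 7, then, the edges of the lymphoblast lines lay within 644 bp of that of 961C on 1 side and at least 1524 bp inside it on the other. The extension lay to the left in 3 of these 4 regions and to the right in region 5. Ratios of these 4 regions exceeded those of 95.9% to 99.6% of the 9449 regions marked in all 4 lines. Of those 9449, 9217 hold no NP23. Among the 153 with NP23 over 500 bp or more, the quartiles of the ratio were 1.20 and 2.25. Regions 3, 5 and 6, at 1.87, 1.67 and 1.81, lay between these quartiles, and region 7, at 3.26, lay above them.

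**Figure D2:**
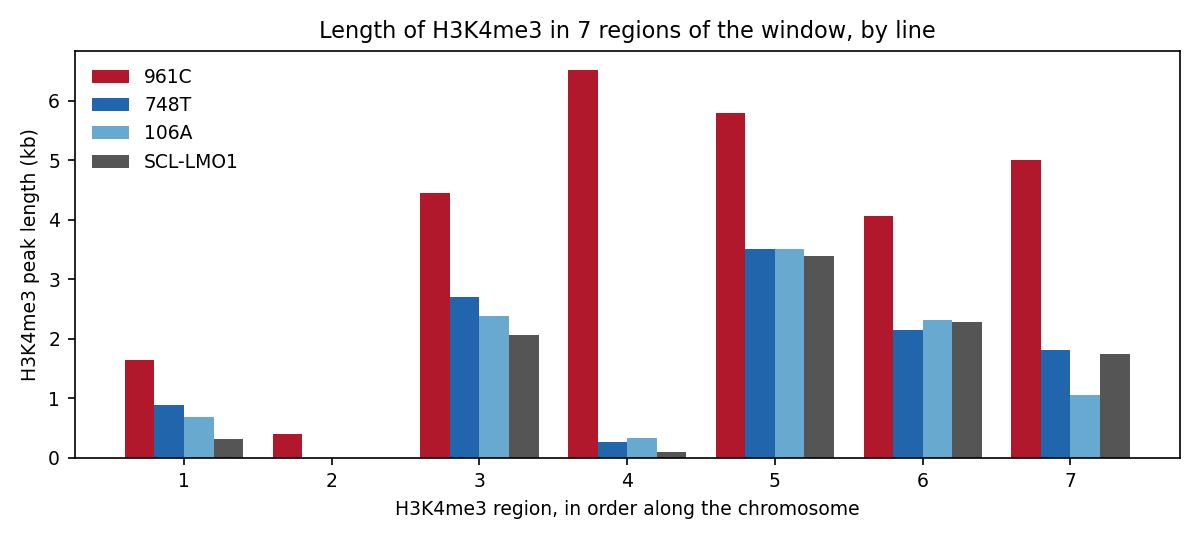
Length of H3K4me3 in kb (y axis, from 0) in each of the 7 regions of the stretch in order along the chromosome (x axis), with 1 bar per line and 1 library per bar. The bar of 961C is the longest in every region, and in region 2 it is the only one.

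Regions 1 and 2 lay apart. Region 1, from 34307509 to 34309144, held no NP23 peak. It still was 1636 bp long in 961C, 885 bp in 748T, 688 bp in 106A and 320 bp in SCL-LMO1 cells, a ratio of 2.59 over the mean of the others. Its peaks had maxima of 33, 32, 31 and 31 reads in the same order, below the median of the own list in every line. Relative to that median they were 0.868 in 961C, 0.421 in 748T, 0.320 in 106A and 0.408 in SCL-LMO1 cells. A longer H3K4me3 peak in 961C was therefore also present at a site of the stretch without listed NP23. Among the 9217 regions of the genome without NP23, 5.92% were at least 1.5 times as long in 961C. Region 2, a peak of 408 bp and 9 reads from 34320366 to 34320773, was listed in 961C alone and met the outermost NP23 peak on the left.

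**Figure D3:**
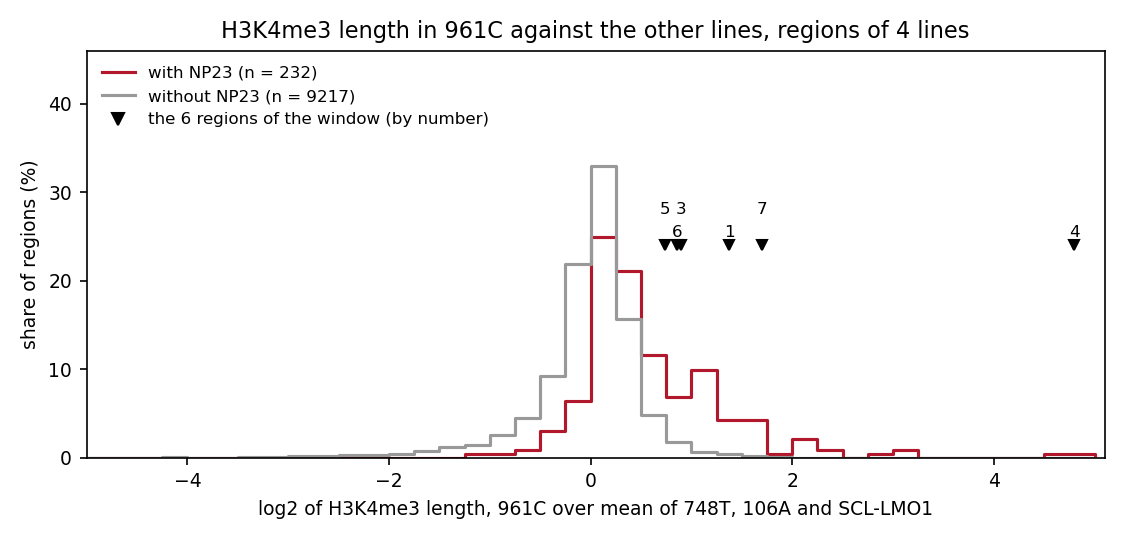
Distribution of the log2 ratio of H3K4me3 length in 961C to the mean length in 748T, 106A and the SCL-LMO1 control (x axis, bins of 0.25, values beyond the axis put in the end bins), as the share of regions in percent (y axis), for the 232 regions with NP23 and the 9217 without it. Triangles, placed at an arbitrary height, mark the 6 regions of the stretch by number, all right of the peak of either distribution.

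All 14 NP23 peaks overlapped H3K4me3 of 961C (100%, interval 76.8 to 100), against 72.0% of all NP23 peaks, and 12 of them lay wholly inside it. Width matters here, since 10 of the 14 were 500 bp or more. Of the 304 NP23 peaks of that width in the whole list, 303 overlapped H3K4me3 of 961C. The overlap is thus not particular to the stretch. H3K4me3 of 961C covered 99.1% of the NP23 bases. Of the 7 H3K4me3 peaks of 961C in the stretch, 6 held NP23, against 4.96% of that list, a difference that follows from how the stretch was chosen. In each of 748T, 106A and the SCL-LMO1 control, 8 of the 14 overlapped H3K4me3 (57.1%, 28.9 to 82.3), against 23.7%, 23.9% and 23.3% of the whole NP23 list. The same 8 peaks met the mark in all 3 lines and the other 6 met it in none. Of NP23 peaks of the whole list that lie in H3K4me3 of 961C, 65.0% met it in no other line, and 32.0% of those of 500 bp or more. Of the 10 peaks of that width in the stretch, 7 met it in each of 748T, 106A and the SCL-LMO1 control (70.0%). The shares of 23.3% to 23.9% are not matched for width, so no excess at the stretch is read from the 57.1%. H3K4me3 of 748T covered 43.3% of the NP23 bases of the stretch, that of 106A 42.9% and that of the SCL-LMO1 control 38.9%.

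The 8 peaks with the mark in every line differed in how much of them it covered. The peak at 34324545 was 99.2% inside H3K4me3 of 748T, 100% inside that of 106A and 98.9% inside that of the SCL-LMO1 control. For the 3657-bp peak at 34334883 the values were 49.1%, 49.99% and 46.6%. For the longest, at 34325832, they were 5.84%, 7.56% and 1.98%. NP23 peaks of 961C thus ran from sites fully marked in the lymphoblast lines to sites barely marked there. The 6 peaks with no H3K4me3 in another line started at 34320627, 34330921, 34339734, 34345460, 34345969 and 34347558, and were 170 to 1324 bp wide.

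NP23 covered bases with H3K4me3 in 961C alone as well as bases with it in every line. Of the 16.1 kb marked in 961C and in no other line, it covered 61.0%. Of the 9.03 kb marked in all 4 lines, it covered 76.6%. Of the 32.2 kb without H3K4me3 of 961C, it covered 0.523%. The larger part of the NP23 bases in absolute terms, 9.83 kb against 6.92 kb, fell on bases marked in 961C alone. No test applies, since neighbouring bases share peaks and NP23 chose the stretch. Base shares over the genome are not given here, so whether this split is particular to the stretch cannot be told.

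In bins of 2 kb, NP23 was listed in 16 of 30 bins (53.3%, 34.3 to 71.7), against 0.132% of all 2 kb bins of the genome, a difference that follows from how the stretch was chosen. H3K4me3 was listed in 18 bins of 961C (60.0%, 40.6 to 77.3), 10 of 748T (33.3%, 17.3 to 52.8), 9 of 106A (30.0%, 14.7 to 49.4) and 9 of the SCL-LMO1 control (30.0%, 14.7 to 49.4). The share of all bins was 1.93% in 961C, 1.86% in 748T, 1.77% in 106A and 1.95% in SCL-LMO1 cells. The intervals of 961C and the other lines overlap, and neighbouring bins share peaks. The NP23 pre-T lines averaged 31.7 ± 2.36% (SD, n = 2 lines). Bins covered to 50% or more numbered 15 in 961C, 5 in 748T, 4 in 106A and 5 in SCL-LMO1 cells. With bins of 5 kb, H3K4me3 was listed in 66.7% of bins in 961C, 748T and SCL-LMO1 cells and in 58.3% in 106A.

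The order of the bins shows the same pattern as the regions. The bins from 0 to 2 kb, from 6 to 14 kb and from 46 to 60 kb after the start of the stretch held no peak of any list. The 3 bins from 22 to 28 kb were covered by H3K4me3 of 961C to 100%, 100% and 65.35% and by NP23 to 100%, 69.85% and 27.3%, with no H3K4me3 in any other line. In the bins from 28 to 32 kb, NP23 covered 50.5% and 100%, and H3K4me3 covered 93.85% and 100% in 961C and 79.25% to 91.55% in the other lines. The 4 bins from 32 to 36 kb and from 36 to 40 kb repeated this contrast. From 32 to 36 kb the mark was listed in 961C alone, with NP23 at 76.95% and 63.35%. From 36 to 40 kb it was listed in every line, with NP23 at 84.8% and 8.55%.

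Of 8 bins with H3K4me3 in 961C alone, 7 held NP23, against 13.4% of such bins in the genome. Of 9 bins with H3K4me3 in all 4 lines, 8 held NP23, against 2.52%. A single bin, from 16 to 18 kb, was marked in 961C and 748T, and it held NP23. The 12 bins without H3K4me3 held no NP23. The bins marked in every line without NP23, and in 961C alone without NP23, were the 2 bins of region 1. Since NP23 chose the stretch, these counts are descriptions.

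**Figure D4:**
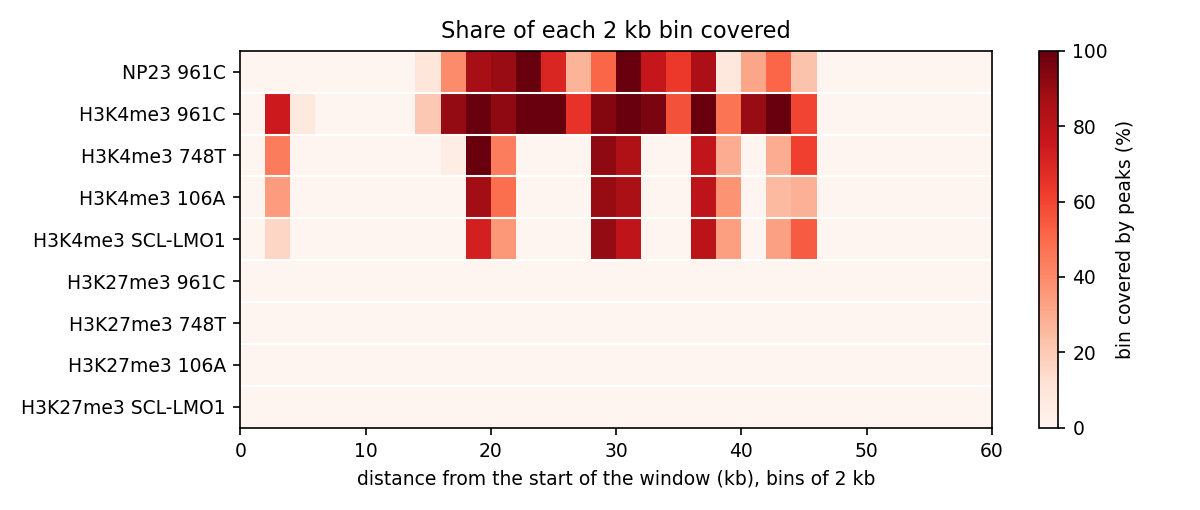
Share of each 2 kb bin covered by listed peaks (colour, 0 to 100%) along the stretch (x axis, kb from its start), with 1 row per list. NP23 and H3K4me3 of 961C form an almost unbroken band from 14 to 46 kb, H3K4me3 of the other 3 lines occupies fewer bins of it, and the 4 H3K27me3 rows are empty.

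H3K4me3 of the NP23 pre-T lines and of the SCL-LMO1 control differed little here. Over the stretch the mean of 748T and 106A, 10.8 kb, was 1.094 times the 9.88 kb of the SCL-LMO1 control. Both NP23 pre-T lines were longer than the SCL-LMO1 control in 4 of the 6 regions marked in every line (regions 1, 3, 4 and 5), against 28.3% of such regions in the genome, and the SCL-LMO1 control lay between them in regions 6 and 7. The difference in region 5 was small, 3510 and 3511 bp against 3396 bp. In regions 1 and 4 it concerned low peaks of 15 to 32 reads. In region 7 the NP23 pre-T lines differed from each other, 1806 bp in 748T and 1061 bp in 106A, and the SCL-LMO1 control (1737 bp) was close to 748T. With 2 lines against 1, no difference was tested.

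H3K27me3 was not listed in the stretch in any line. Its lists cover few bins of the genome, 1.36% in 961C, 0.618% in 748T, 0.422% in 106A and 0.390% in SCL-LMO1 cells, and nothing is read from its absence in 30 bins. None of the 14 NP23 peaks overlapped it, against 9.64% of all NP23 peaks for H3K27me3 of 961C, 0.307% for 748T, 0.246% for 106A and 0.123% for the SCL-LMO1 control. The nearest H3K27me3 peak lay 145 kb to the right in 961C, 19.9 kb to the left in 748T, 173 kb to the right in 106A and 137 kb to the right in SCL-LMO1 cells. The one of 748T, from 34284950 to 34285076, was 127 bp wide and 12 reads high, which is the median height of that list.

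The borders of the stretch lay in gaps of NP23. The nearest NP23 peak outside it on the left was 43.7 kb away, from 34259804 to 34261309, 1506 bp wide and 28 reads high. On the right the next, of 92 bp and 9 reads, was 775 kb away. The 60 kb to the left of the stretch held 4 NP23 peaks over 6.54 kb, and the 60 kb to the right held none. H3K4me3 of the left side covered 12.3 kb in 961C, 8.95 kb in 748T, 9.17 kb in 106A and 8.48 kb in SCL-LMO1 cells, which is a smaller difference than in the stretch. On the right it covered 2.48 kb in 961C, 2.39 kb in 748T and 0 kb in 106A and the SCL-LMO1 control.

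Of 43973 tiles of 60 kb laid over the genome from the borders of the stretch, 1190 held an NP23 peak. The stretch, which is a tile by construction and so is not split by the grid, was 4th by NP23 bases. This rank follows from how the stretch was chosen. By H3K4me3 bases the stretch was 3rd in 961C, where the mark overlaps NP23, 29th in 748T, 80th in 106A and 63rd in SCL-LMO1 cells. The tile with as many NP23 peaks, on chromosome 4 from 109305001 to 109365000, had 14 NP23 peaks over 16.4 kb and H3K4me3 over 23.3 kb in 961C, 10.7 kb in 748T, 10.3 kb in 106A and 9.98 kb in SCL-LMO1 cells, again with no H3K27me3. The 3 tiles with more NP23 bases differed in their marks. Of these, the pair of adjacent tiles on chromosome 11 from 96105001 to 96225000 had H3K4me3 over 42.1 and 19.7 kb in 961C and over 0.095 to 2.89 kb in the other lines, with H3K27me3 in both tiles in the lymphoblast lines and over 2.86 kb of the second tile in 961C. The tile on chromosome 6 from 52125001 to 52185000 had H3K4me3 over 28.6 kb in 961C, 22.9 kb in 748T, 22.7 kb in 106A and 0 kb in SCL-LMO1 cells, with no H3K27me3. Set over the mean of the other 3 lines, H3K4me3 of 961C in the antigen processing stretch gave a ratio of 2.65, and over the 12 tiles with the most NP23 bases the ratio ran from 1.88 to 76.2. No test of these differences was possible with 1 library per line and mark.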

How the data were processed

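Of 13 samples, 9 have a peak list, and the 4 inputs were not used here. The submitters' processing notes name BWA 0.5.9-r26, CASAVA 1.9 and build mm9, and the sources used here name no peak caller and no threshold. Each list deposited by the authors gives start, end and, in a text field, the mean and maximum height of the read pileup, with no scaling to depth, and those of an unexplained second track. Heights were ranked within a list, and those of different lists, where given side by side, are unscaled. From the values, starts count from 0, and printed starts were raised by 1. Depth per library is unknown, so the listed peaks limit the precision. Of 109165 peaks, 5 lack the second track.

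Groups follow the labels' cell type and antibody. Peaks overlapping by 1 bp or more counted as shared. Bins of 2 kb, tiles of 60 kb and regions merged over the 4 lines were taken on chromosomes 1 to 19, X and Y, with the furthest listed peak end as chromosome length. H3K4me3 lengths are the bases covered by peaks in a merged region. Interval steps were tested on simulated data. Python 3.11.15, numpy 2.4.6, pandas 2.3.3 and scipy 1.17.1 were used. Alternatives were other bins, overlaps, heights, joining, NP23 widths, second-track limits and left-out lines. The members, and the tests and lists, were chosen with earlier results of these data known, and the regions, ratios and base shares after the peaks were seen. NP23 peaks of 500 bp or more and the widest H3K4me3 peak of each line were to be named. No mm9 gene annotation was at hand, so other genes of the pathway, and marker genes of the labelled cell types, were not analysed here.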

Additional observations from a re-analysis of the deposited data

Results flagged for a closer look

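The second track, which the files do not explain and which was used beside the main measurement only as a limit on peaks, reached 20 reads over the H3K4me3 peak of 961C from 34325797 to 34332307, with a mean of 0.983 reads. Of all H3K4me3 peaks of 961C, 0.0509% reached as high. The highest values listed over H3K4me3 peaks of the stretch were 3 reads in 748T, 9 reads in 106A and 6 reads in the SCL-LMO1 control, which 11.2%, 3.52% and 7.41% of their own lists reached. The value was picked out because its listed number exceeds that of the control, but the lists are not scaled to each other and no difference in level is read from it. The NP23 peak from 34330921 to 34331546, inside the same H3K4me3 peak, had a second-track maximum of 12 reads, a height reached by 1.35% of NP23 peaks. H3K4me3 peaks of the other lines do not extend to that position, so the track is not given there for them.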

How the results depend on the processing

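Of 148 alternative values for 34 results, 138 stayed within the counting interval, within 1 SD or within 1.5 times, 10 moved and 0 reversed direction. A reversal could be scored only for NP23 coverage of the stretch against its surroundings. Most alternatives for H3K27me3 act on an empty set and could not move. For a mean of 2 lines, leaving 1 out always stays within 1 SD. The count of values that stayed is therefore no measure of stability. Counting only bins covered to 50% or more lowered the share of bins to 33.3% for NP23 and, for H3K4me3, to 16.7% in 748T and 13.3% in 106A. Bins of 5 kb raised the H3K4me3 share to 66.7% in 748T, 58.3% in 106A and 66.7% in SCL-LMO1 cells. In 961C the share with these bins was also 66.7%, so the higher bin share of 961C depends on bin length. No bin of 5 kb was marked in 961C alone. A second-track mean of at most 1 left 3.33% of bins in 106A, where the list median of that track is 1.46, and a single bin marked in all 4 lines, of which 0% held NP23, and 0% of its bases. With the taller 50% of each list, chosen after seeing the data for this value, 100% of bins marked in 961C alone held NP23. The mean share of H3K4me3 bins in the NP23 pre-T lines was 30.0% to 33.3% with 1 line left out, that of H3K27me3 stayed at 0%, and without each of the other lines in turn 87.5% to 88.9% of bins marked in 961C alone, and 88.9% of those marked in all remaining lines, held NP23. All regions stayed at least 1.5 times as long in 961C in the 6 alternatives run, although only 3 remained with joined peaks, 3 with taller peaks and 1 under the second-track limit. No paired analysis was possible because no antibody is repeated within a line and the labels give no replicate numbers. The unknown depth limits what the absence of a listed peak can mean.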
